A study of Mus musculus with 19 samples.

Results

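The genes described here are the small nucleolar RNAs (snoRNAs) and small Cajal body RNAs (scaRNAs) of mouse embryonic stem cells (mESC) and of the epiblast-like cells (EpiLC) made from them. They were chosen by name and level. After transcript values were summed per gene, every gene whose symbol starts with Snord, Snora or Scarna and that reached a TPM of 1 (the length-normalised share of transcripts) in at least 3 of the 19 libraries was kept. This gave 53 detected genes of 135 genes of the family in the table, among 14972 genes of any kind that passed the same limit. They comprised 10 of 85 C/D box genes, 35 of 41 H/ACA box genes and 8 of 9 scaRNA genes. The choice used the level over all libraries and no comparison between groups, so levels are given as a description. A gene that reached the limit in 1 group alone would have to differ from the others. The counts below therefore describe the detected genes and do not stand for the whole family.

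Small nucleolar RNAs are short, stable, non-coding RNAs of the nucleolus. C/D box RNAs carry the C box and the D box and direct methylation of ribose in ribosomal RNA, while H/ACA box RNAs end in an ACA box and direct the change of uridine to pseudouridine. A few members of both kinds are needed to cut the ribosomal RNA precursor instead. Small Cajal body RNAs are built in the same ways, often with both kinds of box in 1 molecule, and direct the same changes in the spliceosomal RNAs. Most vertebrate snoRNAs are cut out of introns of a host gene, so the host's transcription supplies them, and a few are transcribed on their own.

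The series held 19 RNA libraries of 6 groups: XX mESC (3 libraries, line LF2, wild type), XY mESC (3, line E14, wild type), XX Tet3-/- mESC (4, line LF2), and the EpiLC of each (3, 3 and 3). Tet3 encodes a dioxygenase that oxidises methylcytosine in DNA, and the series compares mESC with EpiLC across these genotypes. The mESC were kept in 2i medium with LIF, and EpiLC were obtained after 5 days with FGF5 and Activin A and no LIF. Sex and cell line cannot be told apart, since every XY library came from E14 and every XX library from LF2. The labels number the Tet3-/- samples without saying whether they are clones or cultures, nor how the allele was made. The origin of the replicates is likewise not given, so the p-values measure only the spread between these libraries. Libraries were made from 200 ng of total RNA after removal of ribosomal RNA with a stranded kit, from RNA with an integrity number of at least 9. In such bulk data fewer cells with an RNA and less of it per cell cannot be told apart.

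Naive markers separated the labelled states in all libraries, while EpiLC markers rose unevenly. Summed TPM of 7 naive pluripotency genes lay between 301 and 738 in mESC and between 26.9 and 91.6 in EpiLC. The sum of 5 EpiLC genes lay between 19.2 and 28.6 in XX mESC and between 39.9 and 47.3 in XX EpiLC. In the XY states it lay between 6.91 and 20.5 and between 256 and 325. In the Tet3-/- states it lay between 22.2 and 29.6 and between 43.7 and 150. Tet3 itself was low, at 0.532 to 0.916 TPM in the Tet3-/- mESC against 0.536 to 1.06 in XX mESC, and at 0.693 to 1.42 in the Tet3-/- EpiLC against 1.21 to 1.90 in XX EpiLC. A total over all Tet3 transcripts does not check the deleted part, which the labels do not name. The table keeps no read depth, and what varied between libraries was the make-up of the RNA. The signal recognition particle RNA Rn7s1 took 23.5% to 43.7% of TPM and nuclear protein-coding genes 21.4% to 46.7%. Markers of mesoderm (2 genes summed) reached 94.5 TPM in 1 Tet3-/- EpiLC library, lay between 17.4 and 27.3 in XY EpiLC and were under 1 in XX EpiLC. Markers of fibroblasts (4 genes) stayed at or below 9.72. Their part in the results was not tested.

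Detection followed annotated length. None of the 73 C/D genes shorter than 100 bases was detected, while 10 of the 12 C/D genes of 100 bases or more were. All 41 H/ACA genes are at least 100 bases long and 35 of them were detected. Among scaRNA genes, 7 of 7 at or above 100 bases were detected and 1 of 2 below, Scarna9 of 70 bases, with a mean of 4.96 TPM. Of the 82 undetected genes 62 were listed at 0 in every library, 57 of them C/D. Genes of snoRNA or scaRNA type under other symbols split in the same place, with 2 of 257 passing the limit below 100 bases and 169 of 1023 at or above it. The highest single value of any C/D gene under 100 bases was 2.94 TPM. Whether the short RNAs are absent from the cells, were not captured in the libraries or were not assigned reads was not tested. The imprinted Snord116 family, whose 3 listed genes have 94 bases, was at 0 throughout. Just inside the limit were Snord23, at 1 TPM or more in 4 libraries, Snora16a in 6 and Snora28 in 8. Just outside, at 1 TPM or more in 2 libraries, were Snord67 (mean 0.439 TPM), Scarna17 (0.277), Snord32a (0.274), Snord104 (0.155) and Snord49a (0.122).

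**Figure D1:**
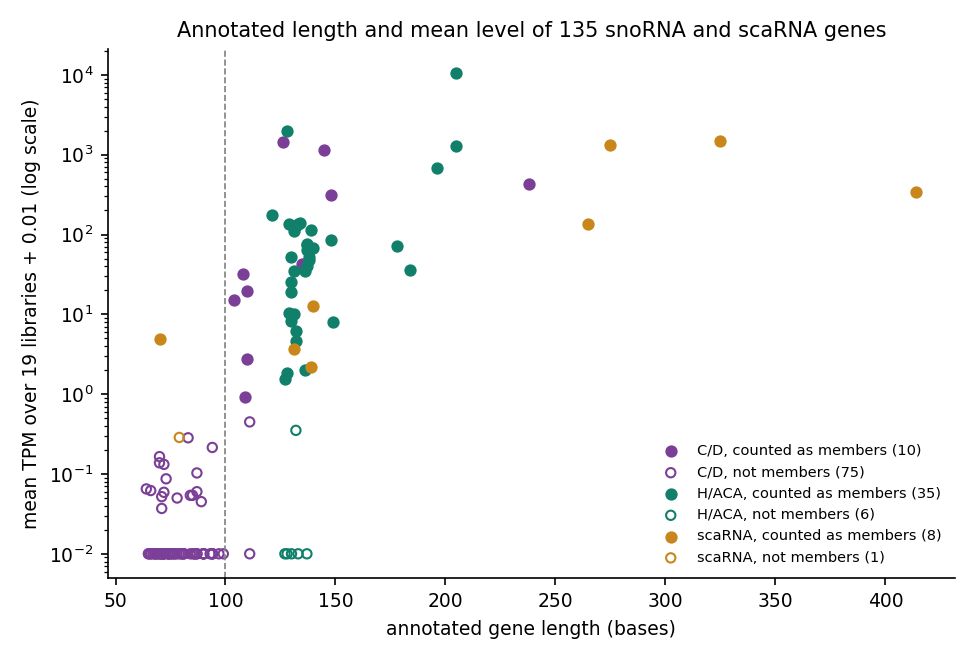
Annotated gene length (x axis, bases) against mean TPM over 19 libraries plus 0.01 (y axis, log scale) for the 135 genes of the family, coloured by class, with detected genes filled. Left of the dashed line at 100 bases the only filled point is Scarna9, and the row of open circles at the bottom holds the genes listed at 0.

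A single host showed the split within 1 transcript unit. Snhg12, a non-coding host gene on chromosome 4, carries the H/ACA genes Snora44, Snora61 and Snora16a and the C/D gene Snord99. Snora44 had a mean of 136 TPM and Snora61 one of 52.7 TPM, while Snord99 was listed at 0 in all 19 libraries. A second Snhg12 H/ACA entry of 137 bases was also at 0. Both RNAs are printed 5′ to 3′ from the GENCODE M21 transcripts (GRCm38), because they share a host and differ in length and class. Snora61 spans chr4:132310240-132310369 and Snord99 chr4:132310691-132310764, both on the plus strand. Capitals mark the ACA box of Snora61 and the C box TGATGA and D box CTGA of Snord99.
Snora61: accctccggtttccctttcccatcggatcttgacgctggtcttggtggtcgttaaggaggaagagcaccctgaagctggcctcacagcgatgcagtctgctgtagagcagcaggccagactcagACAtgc
Snord99: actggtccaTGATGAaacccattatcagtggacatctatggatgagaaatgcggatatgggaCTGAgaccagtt
The growth-arrest RNA Gas5, a host of C/D RNAs alone in this table, behaved likewise: its own mean was 263 to 723 TPM over the groups, and its 4 listed C/D genes, of 66 to 81 bases, were at 0 in every library.

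The classes by symbol were checked against their boxes, searched on the transcript strand only. ACA stood in the last 8 bases of 33 of the 35 detected H/ACA genes, against 11.5% of all GENCODE transcripts. CTGA stood in the last 15 bases of 9 of the 10 detected C/D genes, against 7.11% of all transcripts, and TGATGA in the first 20 bases of 6 of the 10, against 0.700%. Undetected C/D genes held these letters as often, CTGA in 69 of 75 and TGATGA in 50 of 75. The scaRNAs were mixed, with ACA at the end of 4 of the 8 and CTGA at the end of 4. No match says only that these letters are not in that window.

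The detected genes together took 1.57% to 3.44% of TPM. Snora73a alone took 39.9% to 53.7% of that share. It is an H/ACA RNA that takes part in cleavage of the ribosomal RNA precursor on the way to the small subunit rather than in pseudouridine formation. Snora73a (chr4:132352775-132352979) and its copy Snora73b (chr4:132352322-132352526) lie on the minus strand within Snhg3, and an annotated Snhg3 exon overlaps Snora73a. They are printed because the most abundant RNA of the family has a near-copy in the same host, and capitals mark the bases that differ.
Snora73a: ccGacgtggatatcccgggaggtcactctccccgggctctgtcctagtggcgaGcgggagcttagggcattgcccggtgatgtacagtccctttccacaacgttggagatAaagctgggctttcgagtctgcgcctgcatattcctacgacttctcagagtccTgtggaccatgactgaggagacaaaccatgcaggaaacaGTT
Snora73b: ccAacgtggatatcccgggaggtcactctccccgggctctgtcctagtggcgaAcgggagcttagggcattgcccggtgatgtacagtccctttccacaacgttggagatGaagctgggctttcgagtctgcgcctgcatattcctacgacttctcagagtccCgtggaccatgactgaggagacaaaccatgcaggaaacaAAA
Counted from 1 at the 5′ end, with the Snora73a base first, the 7 differences in 205 bases are G3A, G54A, A111G, T164C, G203A, T204A and T205A. The copies are 96.6% identical and share a run of 56 bases, so the authors' quantification could divide reads between them and their separate values are uncertain. The mean ratio of Snora73a to Snora73b lay between 7.34 and 8.47 in the 6 groups. Among the 1378 pairs of detected genes, 2 others shared a run of at least 20 bases: Scarna3a with Scarna3b (23 bases) and Snord15a with Snord15b (21 bases).

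The spread between libraries of a group was wide and rose as the level fell. The coefficient of variation, median over the groups, was 19.3% for the 19 genes with a mean of 100 TPM or more, where all genes tested at that level had 20.0%. It was 30.7% for the 22 genes between 10 and 100 TPM, against 22%, and 80.5% for the 12 below 10 TPM, against 27.0%. The lowest values among the 19 abundant genes were those of Snora17 (8.18%) and Snora74a (8.45%).

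Whole libraries also shifted together. In XX mESC replicate 1, 34 of the 40 genes that reached 1 TPM in every library lay above their group mean, with a median log2 deviation of 0.59. In XX mESC replicate 2 only 7 of the 40 did, with a median of -0.61. The 42 host genes of the 53 had median deviations of -0.35 in replicate 1 and 0.33 in replicate 2, beside -0.30 and 0.20 for all genes tested. On this scale the next largest shifts were in Tet3-/- mESC number 2 (-0.33) and number 4 (0.31). After the median-of-ratios scaling described below, XX mESC replicates 1 and 2 stood at 1.00 and -0.93, followed by XY mESC replicate 3 (-0.63) and replicate 2 (0.56). These XX mESC libraries enter every XX comparison in mESC, and the counts are given below with and without them.

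**Figure D2:**
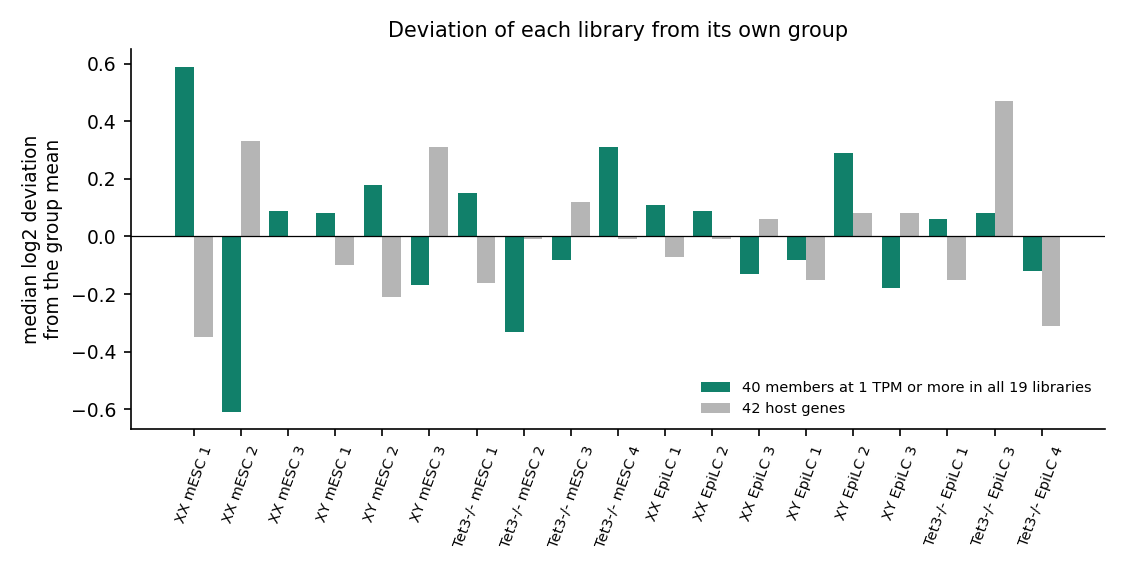
Median log2 deviation from the group mean (y axis) in each of the 19 libraries (x axis) for the 40 genes at 1 TPM or more in all libraries (green bars) and for the 42 host genes of the 53 detected genes (grey bars). XX mESC replicates 1 and 2 stand farthest from 0, at 0.59 and -0.61, with hosts on the opposite side.

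Summed TPM was set by the H/ACA class in every group. The 35 H/ACA genes summed to 25507, 12580 and 21182 TPM in XX mESC and to 14336, 15567 and 12810 in XX EpiLC. The 2 XX groups overlap because replicate 2 is low. In XY cells the H/ACA sums were 20537, 21792 and 18437 TPM in mESC and 11452, 15206 and 9729 in EpiLC, with no overlap. Among Tet3-/- cells they were 20260, 15292, 17999 and 21329 TPM in mESC and 11350, 12163 and 9666 in EpiLC, again with no overlap. Without Snora73a and Snora73b, whose copies dominate the sum, the other 33 H/ACA genes came to 4184 ± 670 TPM in XY mESC and 2841 ± 838 in XY EpiLC (SD, n = 3 each), and to 5287 ± 868 (n = 4) and 3235 ± 594 (n = 3) in the Tet3-/- states. In XX cells they came to 6327 ± 2568 and 4249 ± 514 TPM (n = 3 each). Without the pair the XY groups overlap (lowest mESC sum 3437, highest EpiLC sum 3685), as do the XX groups, and the Tet3-/- groups do not.

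The 10 C/D genes moved less in their sum. It was 3578 ± 1564 TPM in XX mESC and 3192 ± 340 in XX EpiLC, 3970 ± 661 and 3212 ± 528 in the XY states (SD, n = 3 each), and 3709 ± 1361 (n = 4) and 2937 ± 113 (n = 3) in the Tet3-/- states. The mESC and EpiLC values overlapped in all 3 genotypes. After median-of-ratios scaling the XY sums were apart, at 4469, 6074 and 2385 in mESC and 1933, 2196 and 1769 in EpiLC. The 8 scaRNA genes summed to 3566 ± 561 and 3051 ± 143 TPM in XX mESC and EpiLC, to 3528 ± 653 and 3233 ± 124 in the XY states, and to 3766 ± 459 and 2737 ± 500 in the Tet3-/- states. Of these pairs only the Tet3-/- scaRNA values did not overlap, the lowest mESC value being 3187 and the highest EpiLC value 3044, and on the scaled values they overlapped too (3290 and 4440). These sums carry no test, since the genes share libraries and were chosen by level.

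**Figure D3:**
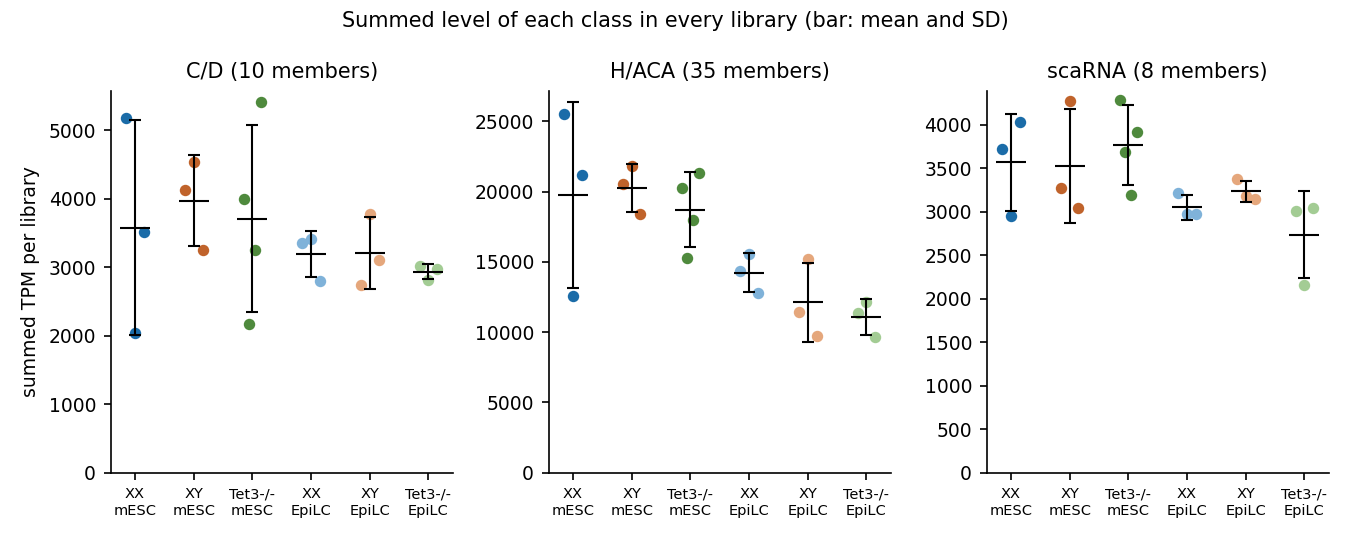
Summed TPM (y axis, from 0) of the C/D, H/ACA and scaRNA genes in every library of the 6 groups (x axis), with points for libraries and bars for mean and SD. H/ACA sums of XY and Tet3-/- EpiLC lie below those of their mESC, while the XX groups overlap through 1 mESC library at 12580.

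The change from mESC to EpiLC was tested for every gene with limma on log2(TPM + 1), and a gene was called at an adjusted p under 0.05. In XX cells 3 of the 53 detected genes were called (2 higher, 1 lower), where 31.3% of all tested genes were (19.2% higher, 12.2% lower). In XY cells 9 were called (2 higher, 7 lower), where 50.5% of all genes were (41.1% higher, 9.36% lower). In Tet3-/- cells 10 were called (1 higher, 9 lower), where 35.1% of all genes were (13.6% higher, 21.5% lower). The shares of detected genes called, 5.66%, 17.0% and 18.9%, were below the background in each. On the deposited TPM the calls in XX and XY cells were H/ACA genes, and in Tet3-/- cells they were 7 H/ACA genes, 2 scaRNAs and 1 C/D gene.

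Leaving out single libraries moved these counts. The XX count was 12 (2 higher, 10 lower) without XX mESC replicate 2, the library with low snoRNAs, and it was 1 without XX mESC replicate 1, XX EpiLC replicate 1 or XX EpiLC replicate 3, and 2 without XX mESC replicate 3 or XX EpiLC replicate 2. The XY count was 5 without XY mESC replicate 1 or replicate 2 and 4 without XY EpiLC replicate 3. The Tet3-/- count was 6 without mESC number 1 and 4 without mESC number 4 or EpiLC number 4. The share of all genes called in these refits is not given here, so a moved count need not be particular to these RNAs.

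Direction within the classes was read beside the median of all genes. The H/ACA genes had median log2 fold changes of -0.55 (XX), -0.61 (XY) and -0.70 (Tet3-/-), where all tested genes had medians of 0.14, 0.54 and -0.13. For C/D genes it was -0.12, 0.00 and -0.26, and for scaRNA genes -0.16, -0.34 and -0.36. H/ACA genes with a negative value numbered 30 of 35, 25 of 35 and 32 of 35, where 40.0%, 23.2% and 58.8% of all genes had one. Since the median gene was itself off 0, above all in XY cells, the same fits were run after median-of-ratios scaling, which brought the all-gene medians to -0.05, -0.04 and -0.03. On that scale the H/ACA medians were -0.81, -1.29 and -0.56, the C/D medians -0.38, -0.69 and -0.12, and the scaRNA medians -0.40, -0.90 and -0.22. In XY cells 8 of 10 C/D and 8 of 8 scaRNA genes then had a negative value, where 53.3% of all genes had one. The counts of calls were 4 in XX (1 higher, 3 lower), 17 in XY (2 higher, 15 lower, among them the C/D genes Snord17 and Snord22 and the scaRNAs Scarna2 and Scarna6) and 4 in Tet3-/- cells (1 higher, 3 lower). All genes then had 49.9% (23.0% higher, 27.0% lower), 50.9% (24.5% and 26.4%) and 51.6% (23.7% and 27.9%) called.

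Snora57, an H/ACA RNA with no host gene on its strand, was lower in EpiLC of all 3 genotypes. Its TPM was 182, 78.7 and 120 in XX mESC and 69.3, 77 and 51.6 in XX EpiLC. In XY cells it was 86.7, 96.1 and 86.1 in mESC and 42, 74.3 and 43.4 in EpiLC. Each mESC value was above each EpiLC value of its genotype, in XX cells by a small margin. In Tet3-/- cells Snora57 was at 106, 97.6, 131 and 133 TPM in mESC and at 51.3, 71.7 and 34.6 in EpiLC. The log2 fold changes were -0.87 ± 0.31 (SE, limma adjusted p = 0.0405), -0.79 ± 0.31 (0.0433) and -1.19 ± 0.29 (0.00353), and on the scaled values -1.13, -1.50 and -1.05, each called. The Tet3-/- call held under all 15 alternatives run for it, whereas the XX call was lost under 8 of 14 and the XY call under 6 of 14, mostly in fits without 1 library: any XX EpiLC library or XX mESC replicate 1 or 3, and any XY mESC library or XY EpiLC replicate 1 or 3. The alternative that leaves out genes overlapping another exon repeats the main fit for Snora57, so no call could be lost under it. Snora57 lies at chr19:8888538-8888685 on the minus strand, and capitals mark its ACA box.
Snora57: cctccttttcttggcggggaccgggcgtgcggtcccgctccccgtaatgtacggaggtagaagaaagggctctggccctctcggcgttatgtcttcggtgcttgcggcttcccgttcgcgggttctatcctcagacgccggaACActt

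Snora73a fell in XY and Tet3-/- cells. It stood at 14040, 15562 and 13278 TPM in XY mESC and at 7714, 10341 and 6879 in XY EpiLC, groups that do not overlap. The Tet3-/- values were 12795, 10026, 11511 and 13594 TPM in mESC and 6938, 7340 and 6322 in EpiLC, also apart. The log2 fold change was -0.80 ± 0.20 in XY (SE, limma adjusted p = 0.0033) and -0.80 ± 0.19 in Tet3-/- cells (0.00283), about a 1.72-fold and a 1.74-fold lower mean. In XX cells it was 14594, 7725 and 13417 TPM against 8813, 9756 and 8197, with a difference of -0.37 ± 0.20 that did not pass (0.196). Here the low mESC value is that of replicate 2, below all 3 EpiLC libraries. On the scaled values the XY call remained (-1.53, adjusted p = 0.00467) and the Tet3-/- one was lost (-0.65, 0.163).

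Snora73b, the near-copy, fell with it, by 0.88 in XY cells (limma adjusted p = 0.00674) and by 0.61 in Tet3-/- cells (0.0494) on the log2 scale. Its Tet3-/- groups overlap, and that call was lost under 11 of 15 alternatives. Their host Snhg3 is a non-coding RNA, at 138 TPM in XY mESC and 71.9 in XY EpiLC when summed over all its transcripts. Snhg3 was lower in all 3 genotypes, at -0.99 in XX, -0.93 in XY and -1.38 in Tet3-/- cells (limma adjusted p = 5.73e-04, 6.09e-04 and 6.22e-06). Because a Snhg3 exon overlaps Snora73a, reads of the pair may not be wholly separable.

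Snora47 went the other way. It is an H/ACA RNA whose gene, chr13:95330600-95330737 on the plus strand, lies in the zinc finger gene Zbed3. Its TPM was 20.1, 16.1 and 23.6 in XY mESC and 81.4, 75.4 and 78.6 in XY EpiLC. This was the gene with the lowest adjusted p among the 53 (log2 fold change 1.94 ± 0.31, limma adjusted p = 4.99e-05, 3.94-fold). It kept its call under all 14 alternatives run, although leaving out genes that overlap another exon repeats the main fit for it. In XX cells it rose from 16.7, 50.6 and 43.7 TPM to 73.2, 60.8 and 74.9, without overlap (1.03 ± 0.31, adjusted p = 0.0164), although that call was lost under 4 of 14 alternatives. In Tet3-/- cells it was at 63.9, 45.5, 40 and 61.6 TPM in mESC and 49.3, 55.6 and 62.6 in EpiLC, which overlap (0.10 ± 0.29, 0.838). The difference between the Tet3-/- and the XX change was -0.93 and did not pass (adjusted p = 0.623). Zbed3 was higher in XY EpiLC too (1.65, limma adjusted p = 3.46e-04) and had 0.85 in XX cells (0.052). In Tet3-/- cells Zbed3 had 0.73 (0.0692), and 0.83 on the scaled values, where it was called higher while Snora47 was not (0.24). Capitals mark the ACA box.
Snora47: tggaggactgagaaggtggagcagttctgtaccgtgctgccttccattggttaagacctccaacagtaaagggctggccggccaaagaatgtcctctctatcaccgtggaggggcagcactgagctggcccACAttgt

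Snora34 and Snora2b are both carried by Kansl2, which encodes a subunit of a histone acetyltransferase complex. They did not move together in XX cells. Snora2b (chr15:98526346-98526482) was at 28.0, 34.4 and 27.3 TPM in XX mESC and at 57.1, 63.7 and 59.3 in XX EpiLC, about 2.01-fold higher without overlap (0.99 ± 0.29, limma adjusted p = 0.0133). Snora34 (chr15:98519716-98519853) was at 92.7, 43.5 and 60.3 TPM in XX mESC and at 43.0, 46.1 and 34.2 in XX EpiLC, a difference of -0.60 that did not pass (0.159). The ratio of Snora34 to Snora2b was thus 2.26 ± 1.02 in XX mESC and 0.684 ± 0.0941 in XX EpiLC (SD, n = 3 each), with the lowest mESC ratio at 1.26 and the highest EpiLC ratio at 0.752. In XY cells it was 1.39 ± 0.143 and 1.13 ± 0.287 (n = 3 each), and the values overlapped. In Tet3-/- cells it was 1.56 ± 0.624 (n = 4) and 0.824 ± 0.509 (n = 3), and the values overlapped too. Kansl2 itself had -0.48 in XX cells (limma adjusted p = 0.336), and -0.73 on the scaled values, where it was called lower. An annotated Kansl2 exon overlaps Snora2b, so reads of that RNA and its host may not be wholly separable. In Tet3-/- cells Snora34 fell by 0.94 (limma adjusted p = 0.0159) although 1 of 4 mESC libraries, number 2, lay within the EpiLC range, and Kansl2 by 0.89 (0.0426). The Snora2b call was lost on the scaled values (0.73, adjusted p = 0.15). Both lie on the minus strand, are of almost equal length and are printed for their shared host, with the ACA box in capitals.
Snora34: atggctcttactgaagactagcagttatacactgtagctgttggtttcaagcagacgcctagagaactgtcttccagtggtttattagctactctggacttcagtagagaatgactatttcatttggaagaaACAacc
Snora2b: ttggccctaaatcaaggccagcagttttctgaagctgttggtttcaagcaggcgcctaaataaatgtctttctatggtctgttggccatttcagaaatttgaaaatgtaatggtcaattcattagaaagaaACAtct

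Other H/ACA genes called lower in XY EpiLC were Snora26 (-1.58), Snora9 (-1.44), Snora78 (-0.92) and Snora3 (-2.38). Snora26, in the non-coding host Dancr, was at 240, 253 and 174 TPM in XY mESC and 66.2, 116 and 50.2 in XY EpiLC, apart in every library (limma adjusted p = 0.0146), and Dancr fell by 0.58 (0.0499). Snora9, in Snhg15, was at 164, 190 and 100 TPM against 65.2, 89.4 and 25.5 (0.0181). Its host Snhg15 had 0.15 (limma adjusted p = 0.624), and -0.56 on the scaled values, where it was called lower. Annotated exons of Dancr and Snhg15 overlap Snora26 and Snora9, so reads of these RNAs and their hosts may not be wholly separable. Snora78, in Snhg9, was at 2028, 1597 and 1336 TPM against 1125, 1463 and 389, which overlap (0.0487). Snora3 was listed at 0 in all XY EpiLC libraries and at 5.57, 2.99 and 4.34 TPM in XY mESC, so no fold is given. Snora20, called higher, was listed at 0 in all XY mESC libraries and at 3.34, 8.36 and 2.14 TPM in XY EpiLC. Snora3 and Snora20 are low RNAs outside the rule for named genes and are given to complete the count of 9.

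The other calls in Tet3-/- cells were Snora17, Snora33, Snora34, Snora69, Scarna10, Scarna13 and Snord118. Snora17, with no host, was at 147, 137, 132 and 131 TPM in mESC and at 59.5, 127 and 67.2 in EpiLC (-0.77 ± 0.22, limma adjusted p = 0.00898). The highest EpiLC value, in number 3, comes close to the mESC range without reaching it. The scaRNA Scarna13, in Snhg10, was at 1827, 1541, 1247 and 1649 TPM in mESC and 1208, 846 and 1169 in EpiLC (-0.55, 0.0186). That call was lost under 5 of 14 alternatives, with overlapping groups on the scaled values (-0.41, 0.325). Scarna10, a guide RNA for spliceosomal RNA in the condensin gene Ncapd2, fell by 0.50 (0.0483), a call that 12 of 14 alternatives did not keep. Snora69, on the X chromosome in the ribosomal protein gene Rpl39, fell by 0.92 (0.0403), beside a change of -0.77 in Rpl39 (3.53e-04). The Snora69 call was lost under 7 of 15 alternatives, the scaled values among them (-0.80, 0.0927), where Rpl39 lost its call too (0.0728). Snora33, given to complete the count, was called lower (-3.25, 0.0256) with overlapping values between 0 and 31.8 TPM. Snora34 is described above with its host.

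Snord118, the C/D RNA needed for processing of the large-subunit ribosomal RNAs, was the only C/D gene called in any comparison on the deposited TPM. It was at 28.5, 25.5, 35.9 and 31.1 TPM in Tet3-/- mESC and at 43.6, 74.5 and 47.3 in Tet3-/- EpiLC, without overlap (0.81 ± 0.29, limma adjusted p = 0.0386, 1.82-fold). In XX cells the change was 0.41 (0.37) and in XY cells 0.08 (0.841), and the difference between the Tet3-/- and XX changes, 0.41, did not pass (0.821). The Tet3-/- call was lost under 7 of 15 alternatives. Snord118 has a gene of its own, chr11:69073427-69073561 on the plus strand. The capitals mark its D box, and no C box was found in its first 20 bases.
Snord118: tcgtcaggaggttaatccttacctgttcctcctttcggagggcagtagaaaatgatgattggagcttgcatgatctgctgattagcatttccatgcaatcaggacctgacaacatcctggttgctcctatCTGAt

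The most abundant C/D genes were not called on the deposited TPM. Snord22, which takes part in forming the small-subunit ribosomal RNA, was at 1979, 2271 and 1455 TPM in XY mESC and 949, 1324 and 1112 in XY EpiLC, apart but not called (-0.74 ± 0.36, limma adjusted p = 0.097). On the scaled values it was (-1.47, 0.0272). Snord15b, in the ribosomal protein gene Rps3, was at 1592, 655 and 1330 TPM in XX mESC and 1120, 1263 and 1131 in XX EpiLC, overlapping (0.07, 0.906). Its partner Snord15a in the same gene ran at 0.239 to 0.293 times its level in the 6 groups. Snord15b (chr7:99479563-99479707, minus strand) is shown as a C/D RNA with both boxes, in capitals.
Snord15b: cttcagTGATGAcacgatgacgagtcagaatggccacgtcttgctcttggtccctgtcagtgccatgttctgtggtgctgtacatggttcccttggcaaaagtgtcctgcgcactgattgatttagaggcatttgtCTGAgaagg

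**Figure D4:**
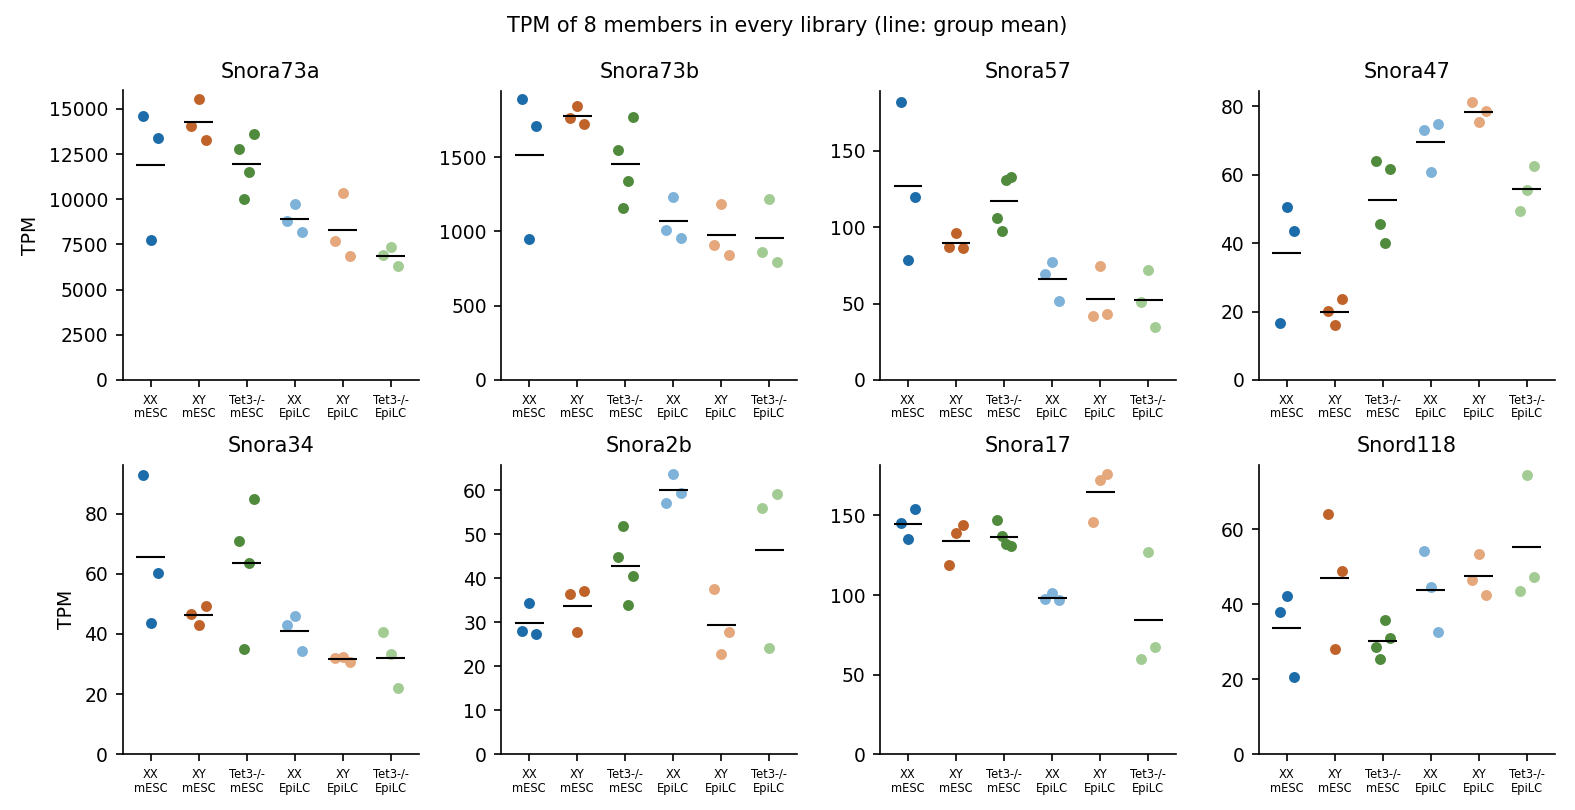
TPM (y axis, from 0) of 8 genes in every library of the 6 groups (x axis), with a line at the group mean. Snora57 is lower and Snora47 mostly higher in EpiLC, Snora2b and Snora34 of the same host diverge in XX EpiLC, and Snora17 is highest in XY EpiLC.

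Loss of Tet3 was compared within each state. None of the 53 genes was called between Tet3-/- and XX mESC, where 0.601% of all genes were, and none between Tet3-/- and XX EpiLC, where 1.08% were (limma, with 1 and 0 of the 53 at an unadjusted p under 0.05). The smallest adjusted p-values were 0.544 and 0.573. The median log2 difference of the 53 was -0.08 in mESC and -0.25 in EpiLC, where all genes had 0.19 and -0.07. The difference between the Tet3-/- and the XX transition was called for none either, where 0.174% of all genes were, with 3 of 53 at an unadjusted p under 0.05 and a smallest adjusted p of 0.482. For Snora73a that difference was -0.43 ± 0.28. These p-values do not show that the values are equal.

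Between XX and XY mESC none of the 53 genes was called, where 14.2% of all genes were, and 4 had an unadjusted p under 0.05 (limma). Snora47 alone was called on the scaled values, higher in XX (1.01, adjusted p = 0.00835), where 30.7% of all genes were called. Without XX mESC replicate 2 the count was 6 (5 higher, 1 lower in XX), and without replicate 1 it was 1. In EpiLC 6 genes were called (4 higher, 2 lower in XX), where 47.2% of all genes were, 5.23% higher and 42.0% lower. Among the 35 H/ACA genes 25 had a positive value and the median was 0.35, where all genes had -0.59 and 81.6% of them a negative value. The count of 6 became 2 without XX EpiLC replicate 1 or XY EpiLC replicate 3, 3 without XX EpiLC replicate 2 and 4 without XY EpiLC replicate 2. For the fits without 1 library the share of all genes called is not given here. Beside this comparison, the sum of 5 EpiLC markers lay between 39.9 and 47.3 TPM in XX and between 256 and 325 in XY EpiLC, and the part of that gap in the values was not tested.

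The 4 genes higher in XX EpiLC were Snora2b, Snora9, Snora78 and Snora69. Snora2b, at 57.1, 63.7 and 59.3 TPM in XX EpiLC, was at 37.6, 22.8 and 27.8 in XY EpiLC (1.03 ± 0.29, limma adjusted p = 0.00927). Snora9 was at 129, 159 and 93.6 TPM against 65.2, 89.4 and 25.5 (1.21, 0.0458), while its host Snhg15 was lower in XX EpiLC (-0.92, 0.00772, and -0.18, not called, on the scaled values). Snora78 had 1999, 2063 and 1546 TPM against 1125, 1463 and 389 (1.1, 0.0242). The groups were apart for each of the 4 genes. Calls were lost under 1 of 13 alternatives for Snora2b, 6 of 13 for Snora9, 5 of 14 for Snora78 and 6 of 14 for Snora69, while the scaled values kept all 4. The X-linked Snora69 was at 9.08, 14.1 and 8.25 TPM in XX and 7.16, 3.90 and 3.70 in XY EpiLC (0.97, 0.0352), and the other X-linked gene, Snora70 in Rpl10, had 1.54 (0.0535) with overlapping values. On the scaled values Snora70 was called higher in XX (2.25). So were the hosts Rpl10 (0.86) and Rpl39 of Snora69 (1.04), neither of them called on the deposited TPM (0.11 and 0.28). An annotated Rpl10 exon overlaps Snora70, so their reads may not be wholly separable.

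Snora62, in the ribosomal protein gene Rpsa, and Snora17 were lower in XX EpiLC. Snora62 was at 4.24, 2.21 and 7.73 TPM in XX and 13.7, 19.5 and 12.7 in XY EpiLC (-1.61 ± 0.39, limma adjusted p = 0.00402). Snora17 was at 97.4, 101 and 96.7 TPM in XX and 146, 172 and 176 in XY EpiLC (-0.73 ± 0.23, 0.017). Scaling set aside both calls: Snora62 then had -0.92 (0.167) and Snora17 0.02 (0.969). On the scaled values 11 genes were called in EpiLC, all higher in XX, where 33.0% of all genes were called (17.9% higher, 15.1% lower) and the all-gene median was 0.01. The median of the 53 was 0.18 on the deposited TPM and 0.94 on the scaled values, with 32 and 45 of the 53 positive. Of all genes, 81.6% had a negative value on the deposited TPM and 48.8% on the scaled values. The C/D and scaRNA medians changed sign, from -0.10 and -0.15 to 0.66 and 0.61.

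The change from mESC to EpiLC differed between XX and XY cells for 1 gene of 53, where 16.0% of all genes were called. This was Snora74a, an H/ACA RNA of a non-coding host. It was at 634, 458 and 599 TPM in XX mESC and 686, 808 and 681 in XX EpiLC, and at 859, 835 and 750 in XY mESC and 568, 616 and 619 in XY EpiLC. The 2 genotypes moved in opposite directions, 0.37 in XX and -0.44 in XY, neither of which passed alone, and the difference was 0.81 ± 0.27 (limma adjusted p = 0.0477). The call was kept in 3 of 19 alternatives. The count was 0 without XX mESC replicate 3, XY mESC replicate 1 or 2, any XX EpiLC library, or XY EpiLC replicate 2 or 3, and 2 without XX mESC replicate 1 or XY mESC replicate 3. On the scaled values Snora2b was called as well (1.65, 0.0498), where 23.4% of all genes were. At an unadjusted p under 0.05 there were 7 of the 53.

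Of the 53 genes, 47 lie on the same strand within a host gene, and these 42 hosts were all tested. Protein-coding hosts carried 33 of them, ribosomal protein genes 13 and Snhg genes 10. The host median log2 change from mESC to EpiLC was -0.04 for XX, 0.23 for XY and -0.22 for Tet3-/- cells, and the snoRNA value was below that of its host for 30, 35 and 31 of the 47. In XY cells 6 hosts were called higher and 2 lower, where 41.1% and 9.36% of all genes were. On the scaled values 3 hosts were called higher and 20 lower, with a median of -0.42, where 24.5% and 26.4% of all genes were. Scaled host medians were -0.28 in XX and -0.10 in Tet3-/- cells. The 12 ribosomal protein hosts had medians of -0.10, 0.08 and -0.28, against -0.44, -0.61 and -0.60 for the 13 RNAs they carry, and scaled host medians of -0.36, -0.66 and -0.14, with 8 called lower in XY cells. Between XX and XY EpiLC, 22 hosts were called lower in XX and 0 higher, where 42.0% and 5.23% of all genes were. The host median was -0.72, beside -0.59 for all genes, while the median of the 47 RNAs was 0.14. On the scaled values that host median was 0.02, with 2 called in each direction, where 15.1% of all genes were called lower and 17.9% higher. An annotated exon of another gene on the same strand overlaps 28 of the 53, 22 of them H/ACA, and leaving those out the XX, XY and Tet3-/- transitions had 2, 5 and 5 calls.

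**Figure D5:**
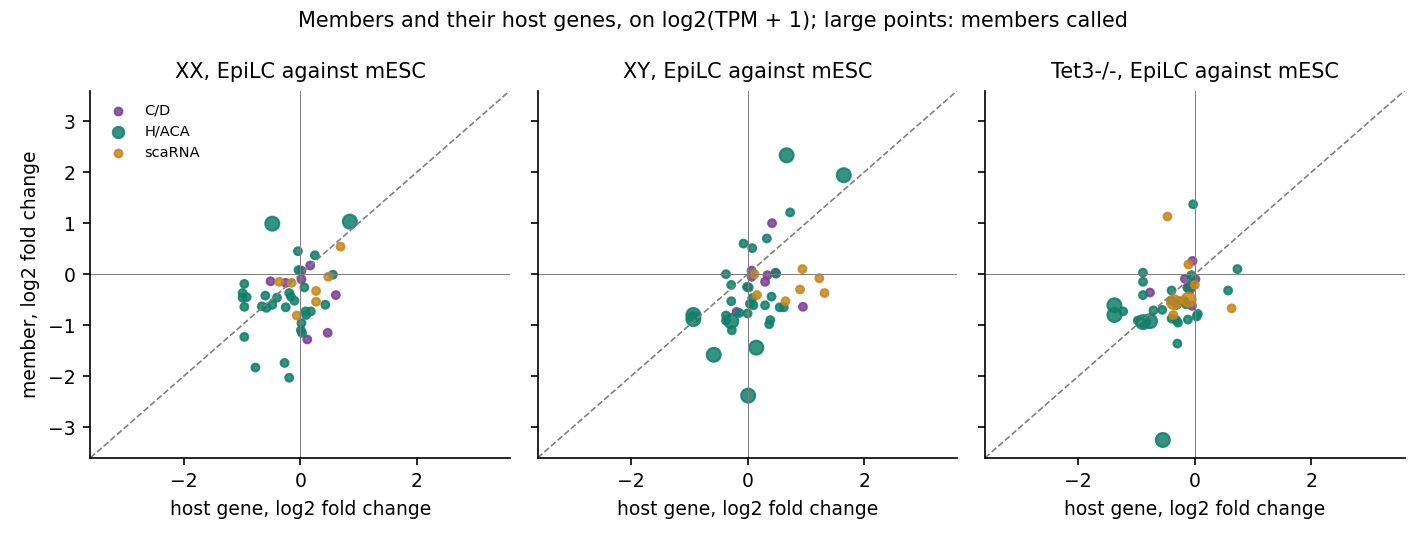
Log2 fold change from mESC to EpiLC of 47 snoRNAs and scaRNAs (y axis) against that of their host gene (x axis) in XX, XY and Tet3-/- cells, on log2(TPM + 1), with large points for RNAs that were called and a dashed line of equality. Below the line lie 30, 35 and 31 of the 47 points.

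The proteins that bind these RNAs were followed through the same transition, and the shares of all genes called are those given above. Of the C/D core proteins Fbl, Nop56, Nop58 and Snu13, none of 4 was called in any of the 3 genotypes, while on the scaled values Nop56 and Snu13 were lower in XX (-0.80 and -0.63) and Nop56 in Tet3-/- cells (-0.61). Fbl is the methyltransferase of the complex, and its mean was 69.5 TPM in XX mESC and 61.6 in XX EpiLC. Of the H/ACA core proteins Dkc1, Nhp2, Nop10 and Gar1, where Dkc1 is the pseudouridine synthase, 1 of 4 was called, Gar1, higher in XY EpiLC (1.16, limma adjusted p = 0.0283) and not called on the scaled values (0.45). There Dkc1 was called lower instead, in XY (-1.15) and in Tet3-/- cells (-0.44). Of 14 assembly and maturation factors 1 was lower in XX and in Tet3-/- cells, Rrp9 (-1.04 and -1.07), and 2 were higher in XY cells, Naf1 (1.69, adjusted p = 4.05e-04) and Rpap3 (0.71), of which the scaled values kept Rrp9 and Naf1. In all, the scaled values called 1 of the 14 higher and 5 lower in XX, 1 and 1 in XY, and 1 and 4 in Tet3-/- cells, Naf1 being the higher one each time. Rrp9 is a protein of the U3 snoRNA particle and Naf1 an assembly factor of H/ACA particles.

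Coil, the coilin protein that marks Cajal bodies, was at a mean of 14.9 TPM in XX mESC and 6.84 in XX EpiLC (-1.01, limma adjusted p = 0.00121) and fell in Tet3-/- cells by 0.86 (0.00223). In XY cells its means were 11.4 and 15.6 TPM, and the XX and XY transitions differed by -1.48 (0.0025), a call that the scaled values kept (-1.05). Wrap53, which brings RNAs with a Cajal body signal there, was not called in the transitions. Between XX and XY EpiLC 3 of 4 C/D core proteins and 9 of 14 assembly factors were lower in XX. So were 2 of 3 Cajal body proteins, where 42.0% of all genes were called lower. On the scaled values the counts were 0, 2 and 2, where 15.1% of all genes were called lower.

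Among 16 tested genes listed as non-coding snoRNA hosts, 4 were higher and 7 lower in XX EpiLC than in XX mESC (limma). The counts were 5 and 3 in XY, and 3 and 7 in Tet3-/- cells. Scaling made these 4 and 10, 4 and 11, and 4 and 7, so the XY balance turned. The shares of all genes called in each direction are those given above for the same transitions. In the XX, XY and Tet3-/- transitions Snhg20 fell by 1.69, 1.31 and 2.05, and Snhg6 by 1.19, 0.60 and 0.87. The imprinted RNAs Rian and Meg3, also on that list, rose, Rian by 3.54, 2.38 and 2.37 and Meg3 by 3.35, 2.86 and 1.67. No detected gene had either as its host. Rian hosts many C/D RNAs, and no C/D gene of under 100 bases was detected here. The other small RNAs Rn7s1, Rn7sk, Terc, Rmrp and Rpph1 were not called in the XX or Tet3-/- transition. That is 0 of 5 in each, where 31.3% and 35.1% of all genes were called. In XY cells Rn7sk and Rpph1 were lower (-0.45 and -0.84, adjusted p = 0.00353 and 8.81e-04), and on the scaled values Rpph1 (-1.58) and Rmrp (-1.18) were called lower and Rn7sk was not.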

How the data were processed

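The deposited table held TPM per Ensembl transcript, made by the authors. The submitters' processing notes name FastQC 0.11.7, Trimmomatic 0.35, Salmon 1.1.0 and GRCm38, and the annotation is not given in the sources used here. Deposited TPM keeps no read depth. TPM was summed per gene with GENCODE M21 (of 140948 transcripts, 139357 matched by full identifier, 495 after the version was dropped and 1096 not). Genes at 1 TPM or more in at least 3 libraries (14972) were fitted with limma 3.58.1 in R 4.3.3 on log2(TPM + 1), 6 groups in 1 fit with a trend, 9 contrasts, Benjamini-Hochberg adjusted within each contrast and called under 0.05. Fold changes on this scale understate those of low genes. Scaled values are TPM divided by median-of-ratios factors. Alternatives are in the closing section. Hosts are the shortest gene containing the RNA on its strand. Named genes were the 5 highest by mean TPM in each class, the 5 highest and 5 lowest called without overlap at 5 TPM or more in each comparison, genes called in the transition difference, their hosts and the listed proteins. The fit was tested on simulated data. The genes and lists were chosen with earlier results of these data known.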

Additional observations from a re-analysis of the deposited data

Results flagged for a closer look

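In the Tet3-/- mESC, the only group of 4, single libraries stood far from the other 3 for 5 genes among 56 sets of 4 values examined. Where the other 3 values are all 0, any value above 0 is flagged. The rate of 1 in 20 by chance does not hold for such sets, so no excess can be read from the count. Snora28 was at 3.56 TPM in number 4 and at 0 in the others. Snord23 was at 4.55 TPM in number 4 and at 0 in the others. Snord89 was at 2.77 TPM in number 1 and at 0 in the others. Snora3 was at 0 in number 2 and between 8.13 and 9.13 TPM in the others. Snora24 was at 20.9 TPM in number 3 and between 16.7 and 17.3 in the others. Apart from Snora24, these are genes with a mean under 10 TPM.

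Snora74a changed differently from mESC to EpiLC in XX and XY cells, by a tested difference of 0.81 on the log2 scale (limma adjusted p = 0.0477), and that call was lost in 16 of 19 alternatives, over which its adjusted p ran from 0.0283 to 0.127.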

How the results depend on the processing

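Counts of called genes among the 53 depended on the setting, and the cause was not tested. Apart from median-of-ratios scaling, the share of all genes called under each alternative is not given here. A count that moved may therefore have moved with the calls of all genes. The reported counts were 3 in XX, 9 in XY and 10 in Tet3-/- for mESC against EpiLC, 0 and 6 between XX and XY in mESC and EpiLC, and 1 for the XX minus XY difference. Median-of-ratios scaling gave 17 in XY, 4 in Tet3-/-, 1 and 11 between XX and XY in mESC and EpiLC, and 2 for the difference, and rescaling over protein-coding genes gave 4 in Tet3-/- and 1 in mESC. No filter, which leaves more genes to adjust over, gave 5 in Tet3-/-, 3 in EpiLC and 0 for the difference. Fitting only the groups compared gave 6 in Tet3-/-, 14 in EpiLC and 2 for the difference, and the latter was 0 with a pseudocount of 0.1 or a limit of 5 TPM. Without the genes that overlap another exon, which leaves fewer genes to count, it was 5 in Tet3-/- and 0 for the difference. Whether equal replicate numbers pair the samples is not given. No set of 3 pairs had every correlation of deviations above 0.1, but so few pairs cannot exclude pairing. Between mESC and EpiLC the correlations were 0.069, -0.049 and 0.032 in XX and 0.186, -0.043 and 0.243 in XY cells. In Tet3-/- cells they were 0.271, 0.303 and -0.02. With the replicate number as a block the counts were 5 in XX, 13 in XY and 14 in Tet3-/- transitions and 14 in EpiLC. Without each library in turn the counts ran from 1 to 12 in XX, 4 to 11 in XY, 4 to 11 in Tet3-/-, 0 to 6 between XX and XY mESC, 2 to 7 in EpiLC and 0 to 2 for the difference. Where a transition lost a library, 2 were left in its group, or 3 in the Tet3-/- mESC, and the spread was pooled over all groups. The counts for Tet3-/- against XX in either state, and for the difference of those transitions, stayed at 0 in every setting run. Of 409 single-gene values under alternatives for 29 called results, 277 kept the call, 131 kept the direction only, and 1 reversed, Snora17 between XX and XY EpiLC, at 0.02 on the scaled values. Leaving out the genes that overlap another exon repeats the main fit for the genes kept. Its 16 single-gene values, counted among the 277, could therefore not change. Read depth is unknown, so no counting error can be given, and the 12 genes under 10 TPM are the least certain.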
